A study of Homo sapiens with 6 samples.

Results

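CD80, CD86, CD83, CD48, CD58, ICAM1 and SLAMF1 encode surface proteins with which a B lymphoblast binds and costimulates T and NK cells. They were taken as a group of 7 genes out of 19974 protein-coding genes on chromosomes 1 to 22 and X, and for each the peak summits within the gene body and 50 kb on either side were collected from every library. The cells were GM12878, a line of B lymphoblasts immortalised by Epstein-Barr virus, and the assay was InTAC-seq, an ATAC-seq protocol for fixed cells carrying antibodies, in which Tn5 transposase cuts and tags open DNA. There were 3 groups of 2 libraries. The H3K27ac high and H3K27ac low groups came from cells fixed for 5 min in 1.6% paraformaldehyde, stained with an antibody to H3K27ac, an acetylated histone found at working promoters and enhancers, and gated for strong or weak staining. The live control group came from unsorted live GM12878 cells, whose DNA was purified with no reversal of crosslinks, so that fixation, staining, sorting and crosslink reversal cannot be told apart in a comparison with it. All 3 groups are 1 cell line with no genetic change, transposed at 50K cells per library for 30 min at 37 °C. Per the labels the cells of each group, the live control included, were divided into replicates, so the spread between them may be technical. The staining protocol writes the antibody target as H3K37ac, which was read as H3K27ac.

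CD80 and CD86 are the B7 ligands of CD28 and CTLA4 on T cells and give the second signal of T cell activation. CD58 binds CD2, CD48 binds CD244, SLAMF1 binds another SLAMF1 molecule and signals through the adaptor SH2D1A, and ICAM1 binds the integrin made of ITGAL and ITGB2. CD83 is a membrane protein of mature dendritic cells and activated B cells. Epstein-Barr virus raises several of these proteins in the cells it transforms, in part through NF-kB, and lymphoblastoid lines are known for carrying them at high levels.

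The stretches of DNA at 4 of the gene starts are shown first, because the open regions described below sit in or beside them. Each runs from 250 bases before to 50 bases after an annotated start, 5′ to 3′ on the gene's own strand (RefSeq, GRCh38.p14), and capitals mark the matches found to any of 10 short motifs. All 7 genes matched the promoter table, CD86 and CD83 with 2 starts each.
CD83 second start, chr6:14117522-14117821, plus strand: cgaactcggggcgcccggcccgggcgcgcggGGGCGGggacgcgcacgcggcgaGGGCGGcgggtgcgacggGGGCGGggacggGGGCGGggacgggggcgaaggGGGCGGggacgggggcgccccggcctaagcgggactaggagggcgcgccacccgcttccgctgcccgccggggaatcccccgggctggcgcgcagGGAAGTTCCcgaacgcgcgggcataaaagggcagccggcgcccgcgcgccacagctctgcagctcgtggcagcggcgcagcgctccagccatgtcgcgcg
ICAM1, chr19:10270870-10271169, plus strand: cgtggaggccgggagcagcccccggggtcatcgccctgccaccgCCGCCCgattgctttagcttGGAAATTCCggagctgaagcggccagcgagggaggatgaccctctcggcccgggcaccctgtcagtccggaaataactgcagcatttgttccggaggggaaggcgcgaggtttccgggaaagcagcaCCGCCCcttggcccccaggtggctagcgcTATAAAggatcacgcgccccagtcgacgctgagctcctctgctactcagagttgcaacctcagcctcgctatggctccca
CD58, chr1:116570977-116571276, minus strand: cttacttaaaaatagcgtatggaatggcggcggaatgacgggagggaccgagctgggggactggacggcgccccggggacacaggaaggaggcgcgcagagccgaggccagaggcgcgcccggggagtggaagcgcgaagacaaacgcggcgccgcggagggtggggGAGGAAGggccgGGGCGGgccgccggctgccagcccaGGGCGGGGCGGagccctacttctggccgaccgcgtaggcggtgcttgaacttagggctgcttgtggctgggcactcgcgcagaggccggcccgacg
CD86 first start, chr3:122055112-122055411, plus strand: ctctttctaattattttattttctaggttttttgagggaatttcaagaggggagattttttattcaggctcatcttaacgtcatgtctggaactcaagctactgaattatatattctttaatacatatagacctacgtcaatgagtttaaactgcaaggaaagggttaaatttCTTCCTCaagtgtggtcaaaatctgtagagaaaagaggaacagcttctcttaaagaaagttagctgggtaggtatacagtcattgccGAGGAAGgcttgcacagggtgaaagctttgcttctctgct

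These starts differed widely in base composition. The CD83 second start held 81.3% G and C and 53 CpG dinucleotides, more CpG than 99.4% of the 34961 promoters in the table. CD58 followed with 71.7% and 36 CpG and ICAM1 with 64.7% and 24 CpG, while the CD86 first start held 37.0% and 3 CpG. The medians of all promoters were 58.7% and 14 CpG. CD80 (54.0%, 7 CpG), SLAMF1 (51.0%, 5 CpG) and CD48 (44.7%, 5 CpG) were below both medians.

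Motifs were searched on both strands. The NF-kB letters GGANNNTCC occurred as GGAAGTTCC at -50 to -42 from the CD83 second start and as GGAAATTCC at -186 to -178 from the ICAM1 start, and such a match is present in 9.33% of all promoters. The PU.1 or ETS letters GAGGAAG, found in 13.6% of promoters, occurred at -83 to -77 in CD58, and at 10 to 16 and, on the other strand as CTTCCTC, at -77 to -71 in the CD86 first start. The GC box GGGCGG, in 45% of promoters, occurred 5 times at the CD83 second start, 3 times in CD58, of which the last pair shares 1 base, and 2 times in ICAM1 as CCGCCC. ICAM1 also held a TATA box (TATAAA, in 11.5% of promoters) at -30 to -25, and the CD83 first start, not shown, held 2 matches to it. The other 6 motifs had no match at any member start: AP-1 (TGANTCA, in 7.68% of promoters), CRE (TGACGTCA, in 1.85%), RUNX (TGTGGTT, in 4.28%), IRF (GAAANNGAA, in 8.11%), the CCAAT box (CCAAT, in 34.6%) and the E-box (CACGTG, in 7.27%). In these windows CD80, CD48, SLAMF1 and the CD86 second start had no match to any motif.

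The deposited lists held 25754 and 46708 summits in H3K27ac high, 41980 and 51944 in H3K27ac low, and 70100 and 72476 in live control (replicates 1 and 2 throughout). Read depth is unknown, because the lists hold summits and not reads. H3K27ac high replicate 1 stood apart: its ranks over the regions shared by all libraries correlated at 0.652 to 0.76 with those of the other libraries, against 0.883 between the H3K27ac low replicates and 0.889 between the live control replicates. Since lists of unequal length cannot be set side by side, groups were compared among the 25681 best-scoring summits of each library, the whole list of that library on these chromosomes. These are called equal-length lists below. Each equal-length list had 3 of 7 B cell markers open at the start, near the share of all genes (45.9% to 51.1% per list), and all 7 were open in at least 1 full list. In at least 1 full list CD3E and CD8A of 4 T cell markers, CD14 of 5 myeloid markers and 0 of 3 erythroid markers were open. In such bulk lists fewer cells with an open site and a less open site in each cell cannot be told apart.

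All 7 genes lay in stretches with more summits than the median protein-coding gene. CD86 (NCBI gene 942, chr3:122055362-122121136, hg38) had the densest window, with a mean over the full lists of 11.3 summits per 100 kb, above 99.5% of genes. ICAM1 (gene 3383, chr19:10271120-10286615) had 9.81 and CD58 (gene 965, chr1:116514534-116571026) 9.37 per 100 kb. CD48 (gene 962, chr1:160678746-160711822) had 9.14, CD80 (gene 941, chr3:119524293-119559614) 8.38 and CD83 (gene 9308, chr6:14117256-14136918) 7.52 per 100 kb. SLAMF1 (gene 6504, chr1:160608106-160647044) was lowest at 6.24 per 100 kb, above 87.7% of genes, and the median over all genes was 2.89. In the equal-length lists the members ran from 2.40 (SLAMF1) to 6.13 (CD86) per 100 kb against a median of 1.60 for all genes. The windows of CD48 and SLAMF1 overlap, so the 7 genes make 6 separate stretches.

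The open sites of each window, library by library, are drawn in the map of regions by distance from the start. Summits of all libraries no more than 250 bp apart were chained into regions, giving 127 in the member windows, with a median width of 67 bp. Of these, 36 were called in all 6 libraries, where the share over all 100488 regions is 19.8%. A further 25 were called in 1 library only. The share of such regions over all regions was not taken, so this count cannot be called high or low. By place, 11 lay within 1 kb of a member's own start, 39 elsewhere in a gene body and 77 in the flanks. Away from the members' starts, 12 regions lay at the start of another protein-coding gene in the promoter table. That table covers 15812 of the 19974 genes, so starts of the other 4162 are not in this count. Exons and introns were not told apart here.

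**Figure D1:**
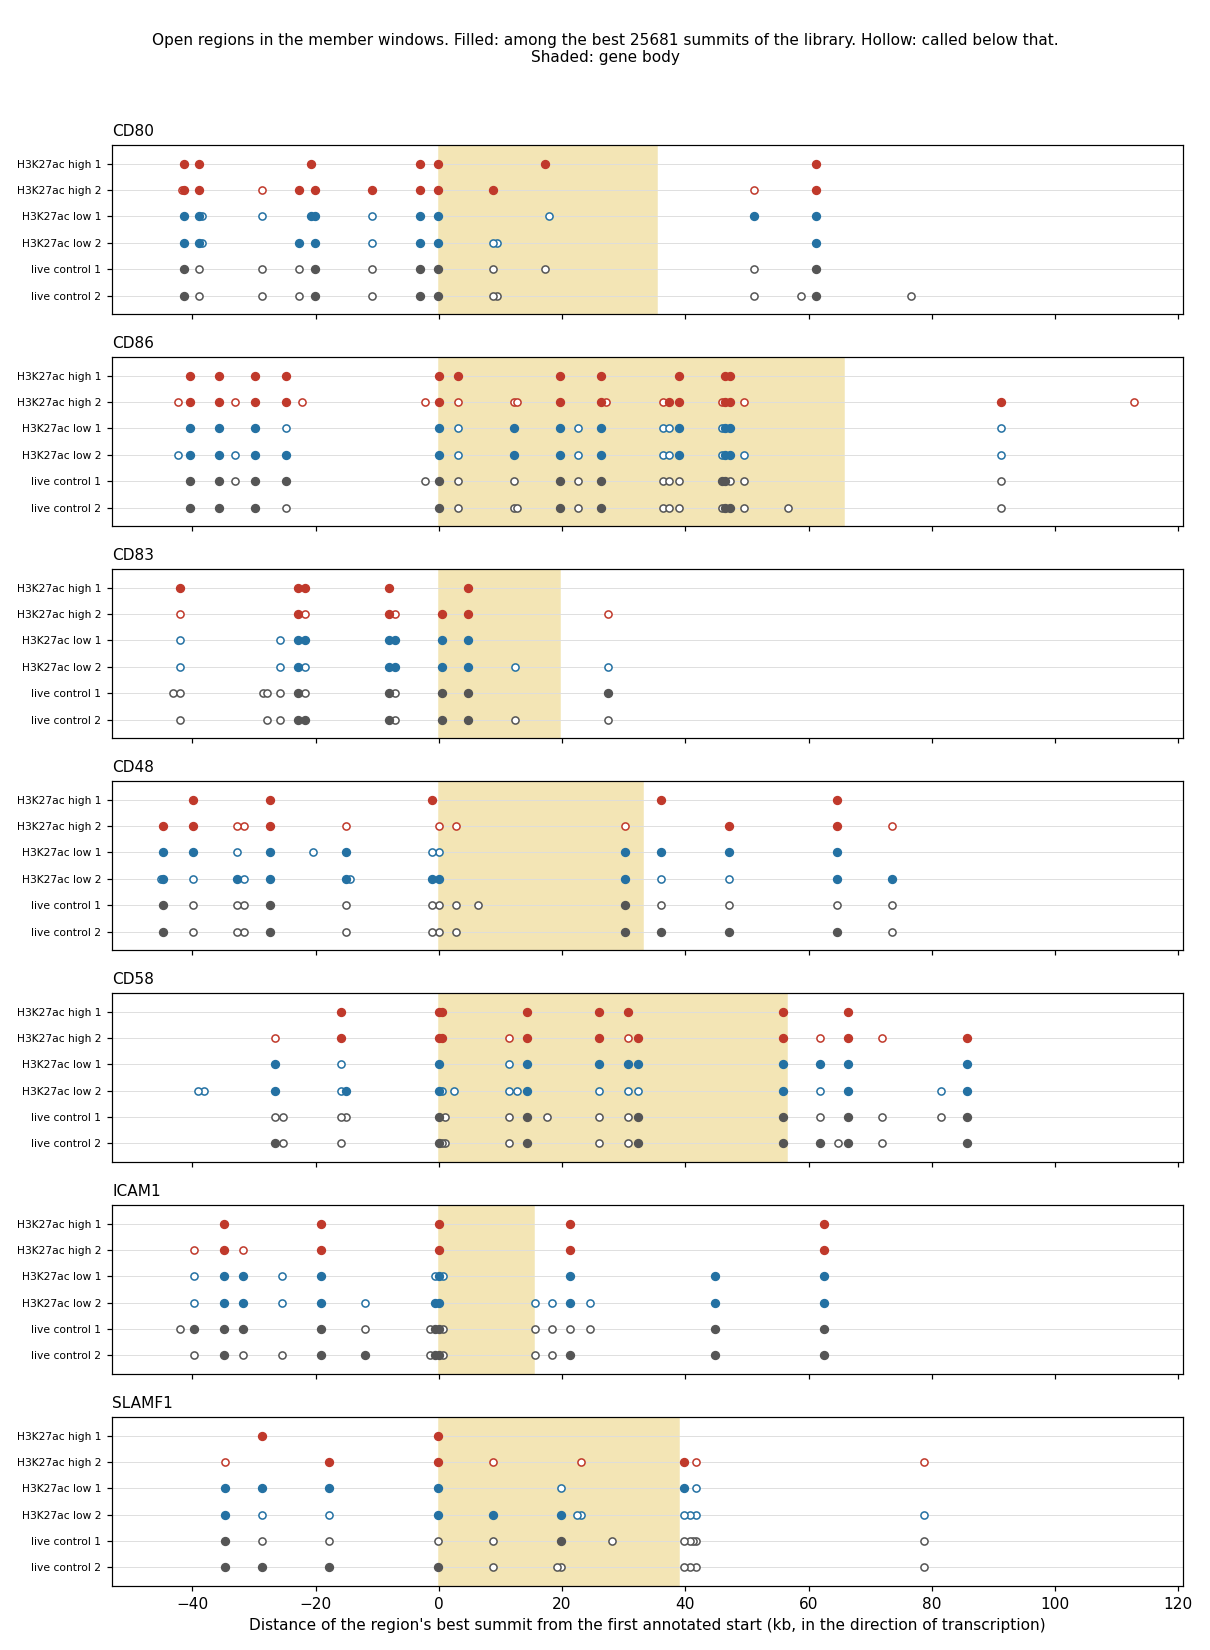
Open regions in the windows of the 7 genes. The x axis gives the distance in kb of each region's best summit from the first annotated start, in the direction of transcription, each row is a library, filled points are among its best 25681 summits, hollow points are called below that, and shading marks the gene body. CD86 has regions in all 6 libraries across its gene body and its upstream flank, and ICAM1 has no region in its gene body beyond its start.

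CD80 and CD86 were open at their starts in every library, and both had strong sites elsewhere in their windows. At the CD80 start (chr3:119559681-119559726) the summits lay 67 to 112 bases upstream. Among the 19858 regions called in all libraries, numbered from 1 for the best score, this site ranked 13788 and 14651 in H3K27ac high, 15361 and 15533 in H3K27ac low, and 13961 and 10374 in live control. Both H3K27ac high libraries placed it ahead of both H3K27ac low libraries and behind live control replicate 2. Here and at the sites below, the order of libraries is a description. The share of all shared regions with such an order was not taken. With 2 libraries against 2, groups that are apart have an exact permutation p of 0.333 (two-sided). The strongest site of the CD80 window was not CD80's own: it lay 99 bp from the start of TIMMDC1, a mitochondrial assembly factor (chr3:119498448-119498519), with ranks of 1983 and 2228 in H3K27ac high, 1915 and 3047 in H3K27ac low, and 620 and 1183 in live control. A site 3.11 kb upstream of CD80 (chr3:119562725-119562791), picked after its values were seen, ranked 3620 and 3172 in H3K27ac high, 3728 and 4230 in H3K27ac low, and 6153 and 6564 in live control. It was stronger in all 4 sorted libraries than in live control, and stronger than the CD80 start in each library. The best site inside the CD80 gene body (chr3:119550743-119550788) was called in 4 libraries, 1 of H3K27ac high, 1 of H3K27ac low and both of live control.

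At the CD86 first start (chr3:122055383-122055465) the summits lay 21 to 103 bases downstream. The site ranked 9292 and 11324 among shared regions in H3K27ac high, 15346 and 15467 in H3K27ac low, and 13592 and 9420 in live control. It was better placed in both H3K27ac high libraries than in both H3K27ac low libraries, and both live control libraries were also ahead of H3K27ac low. The difference in rank score was 0.71 (SE 0.302), with an adjusted p of 0.332 in limma. The second CD86 start (chr3:122077697-122077900) was called in no H3K27ac high library and in both H3K27ac low and both live control libraries, at list ranks of 39734, 42046, 59431 and 66344, past the end of the equal-length lists. Stronger than either start were a site in the gene body 19.64 kb downstream (chr3:122074998-122075095), with shared ranks of 3363 and 5350 in H3K27ac high, 4620 and 7088 in H3K27ac low, and 5141 and 5497 in live control, and a site 29.86 kb upstream (chr3:122025432-122025520). The upstream site ranked 6563 and 4741 in H3K27ac high, 7254 and 7054 in H3K27ac low, and 6946 and 4460 in live control. The groups overlapped at the gene-body site, and upstream both H3K27ac low libraries were behind the other 4.

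The CD83 start was open in 5 of the 6 libraries, at the CpG-rich second start shown above (chr6:14117677-14117827), with summits from -95 to 55 bases of it. Its ranks in the full lists were 5728 in H3K27ac high replicate 2, 6740 and 4554 in H3K27ac low, and 15638 and 16106 in live control, and it was not called in H3K27ac high replicate 1. All 3 sorted libraries that called it placed it ahead of both live control libraries. Over all promoters with at least 53 CpG, 212 in number, the share with a summit in the equal-length lists was 42.5% and 49.1% in H3K27ac high, 54.7% and 57.1% in H3K27ac low, and 48.1% and 47.6% in live control, so that the library without a call at CD83 also had the lowest share. That library also had the lowest share over all protein-coding genes, 45.9% in the equal-length lists against 49.0% to 51.1% in the others. The part of either share in the missing call was not tested. The other CD83 sites were in the gene body 4.78 kb downstream (chr6:14122038-14122056), with shared ranks of 9730 and 12310 in H3K27ac high, 13792 and 15420 in H3K27ac low, and 11962 and 12114 in live control, and 22.94 kb upstream (chr6:14094311-14094354), with 18264 and 7675, 16522 and 11490, and 8709 and 10560 in the same order. The gene-body site was better placed in both H3K27ac high than in both H3K27ac low libraries, and at the upstream site the sorted groups overlapped.

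CD48 and SLAMF1 are neighbours in the SLAM family cluster of chromosome 1. The CD48 start (chr1:160711828-160711922) was not called in H3K27ac high replicate 1 and had list ranks of 29326 in H3K27ac high replicate 2, 32733 and 24387 in H3K27ac low, and 34006 and 35114 in live control. Only H3K27ac low replicate 2 had it in its equal-length list. The SLAMF1 start (chr1:160647044-160647184) was called in all 6 libraries, with shared ranks of 19282 and 17400 in H3K27ac high, 13170 and 11446 in H3K27ac low, and 17594 and 15054 in live control. Both H3K27ac low libraries placed it ahead of the other 4. The difference in rank score between H3K27ac high and H3K27ac low was -1.22 (SE 0.344, adjusted p = 0.271 in limma), which did not pass. Inside the SLAMF1 gene, the best site (chr1:160627208-160627285, 19.78 kb downstream) was called in no H3K27ac high library and in both libraries of the other groups, at list ranks of 33015 and 23602 in H3K27ac low and 17772 and 28381 in live control. The best CD48 sites were in the gene body (chr1:160681631-160681692) and 44.7 kb upstream (chr1:160756440-160756567), and both were called in every library but H3K27ac high replicate 1.

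The CD58 start ranked high in every library. At chr1:116571016-116571074 the summits lay between -48 and 10 bases of the start, a span that holds the last pair of GC boxes shown above (-46 to -36). The shared ranks were 6060 and 6861 in H3K27ac high, 6957 and 5807 in H3K27ac low, and 8898 and 10098 in live control. The 4 sorted libraries were ahead of both live control libraries, and the sorted groups overlapped. A second site 0.57 kb into the gene (chr1:116570454-116570536) was in both equal-length lists of H3K27ac high and none of the others, with list ranks of 11184 and 18760 in H3K27ac high, 33691 in H3K27ac low replicate 2 and 30904 in live control replicate 2. The best sites away from the start were in the gene body (chr1:116556720-116556795), with shared ranks of 8820 and 5568 in H3K27ac high, 8714 and 7718 in H3K27ac low, and 9901 and 7842 in live control, and downstream of the gene (chr1:116504580-116504616), with 4526 and 6306, 5300 and 5771, and 4914 and 2579 in the same order. The groups overlapped at both, except that downstream both live control libraries were ahead of both H3K27ac low libraries.

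The ICAM1 start (chr19:10271051-10271137, summits from -69 to 17 bases) was open in all libraries at shared ranks of 18326 and 16846 in H3K27ac high, 16434 and 16082 in H3K27ac low, and 13646 and 16439 in live control. Both H3K27ac high libraries placed it behind the other 4. A second site 0.6 kb upstream (chr19:10270423-10270522) was called in no H3K27ac high library and in both libraries of each other group, with list ranks of 32122 and 20584 in H3K27ac low and 22683 and 19805 in live control. The site with the best single rank in the window was 34 bp from the start of MRPL4, a mitochondrial ribosomal protein gene (chr19:10251870-10251917). There the shared ranks were 10796 and 12513 in H3K27ac high, 1922 and 4461 in H3K27ac low, and 3935 and 2268 in live control. Both H3K27ac high libraries were far behind the others, with a rank score difference from H3K27ac low of -1.25 (SE 0.312, adjusted p = 0.271 in limma) and from live control of -1.25 (SE 0.312, adjusted p = 0.111). At the start of FDX2, a mitochondrial ferredoxin gene (chr19:10315960-10315984), H3K27ac high again had no call in either library, and list ranks were 21238 and 22312 in H3K27ac low and 15757 and 16700 in live control.

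The plot of start ranks shows the starts side by side. Of the 7 members, 5 and 6 were open within 1 kb of a start in the equal-length lists of H3K27ac high, 6 and 7 in H3K27ac low, and 5 and 6 in live control. CD80, CD86, CD58 and ICAM1 were open in all 6, which is 4 of 7 genes where 41.6% of all protein-coding genes were. In the full lists SLAMF1 joined them, 5 of 7 where 45.0% of all genes were. No member was open in both libraries of a group and neither of another. Over all genes that was so for 0.255% (open in H3K27ac high and not in H3K27ac low) and 1.46% (the reverse), 0.511% and 1.46% between H3K27ac high and live control, and 1.16% and 0.696% between H3K27ac low and live control.

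**Figure D2:**
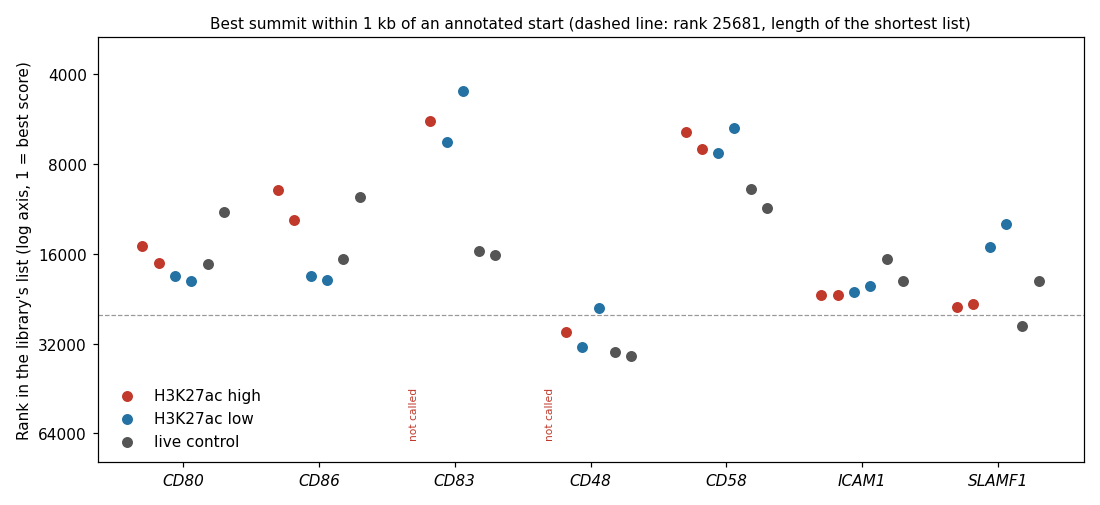
Rank of the best summit within 1 kb of an annotated start in each library's own full list, on a log axis with the best score at the top. Points are libraries, replicate 1 left of replicate 2, and the dashed line marks rank 25681, the length of the shortest list. CD83 and CD48 were not called in H3K27ac high replicate 1, and CD58 lies between ranks 6047 and 11200 in all 6 libraries.

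The comparison of the sorted groups asked whether cells with strong and with weak H3K27ac staining differ in accessibility around these genes. In the equal-length lists the member windows, overlaps counted once, held 41 and 45 summits in H3K27ac high, 50 and 48 in H3K27ac low, and 37 and 40 in live control. In these lists the 3 groups did not overlap, with H3K27ac low highest and live control lowest, but the order changed with list length. In full lists there were 41 and 81 summits in H3K27ac high, 75 and 96 in H3K27ac low, and 100 and 97 in live control. In lists of 12840 summits the mean was 19.0 in H3K27ac high and 15.5 in both other groups, and without H3K27ac high replicate 1, in lists of 41888, it was 76.0 in H3K27ac high, 76.5 in H3K27ac low and 65.5 in live control. An exact permutation test of 2 libraries against 2 reaches p = 0.333 at best (two-sided), and every member whose groups are apart in such a comparison has that p.

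In the equal-length lists ICAM1, CD48 and SLAMF1 were lower in both H3K27ac high libraries than in both H3K27ac low libraries. ICAM1 had 5 and 5 summits in H3K27ac high, 7 and 8 in H3K27ac low, and 8 and 8 in live control. CD48 had 5 and 5 in H3K27ac high, 8 and 9 in H3K27ac low, and 3 and 6 in live control. SLAMF1 had 2 and 3 in H3K27ac high, 5 and 4 in H3K27ac low, and 2 and 4 in live control. Thus 3 of 7 members were lower in H3K27ac high than in H3K27ac low without overlap, where 10.4% of all genes were, and 0 were higher, where 4.13% were, and CD48 and SLAMF1 count in part the same summits. The median difference was -1.0 over the members and 0.0 over all genes. In the full lists ICAM1 alone kept groups apart, with 5 and 7 summits in H3K27ac high, 11 and 14 in H3K27ac low, and 16 and 15 in live control, where 13.3% of all genes were lower in H3K27ac high.

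In the equal-length lists H3K27ac high replicate 2 alone had 5 summits at ICAM1, 5 at CD48 and 3 at SLAMF1. At each gene that was below both H3K27ac low libraries. Longer lists are possible only without H3K27ac high replicate 1, so there list length and the missing library cannot be told apart. With that library left out and the lists lengthened to the next shortest, 41888 summits, ICAM1 had 6 summits in H3K27ac high, 11 and 10 in H3K27ac low, and 10 and 12 in live control, so its single H3K27ac high value was still the lowest. CD48 then had 12 in H3K27ac high, 12 and 14 in H3K27ac low, and 13 and 11 in live control, and SLAMF1 had 7, against 7 and 11, and 6 and 8. For these 2 genes H3K27ac high no longer lay below both H3K27ac low libraries. In lists of 12840 summits none of the 3 genes kept the sorted groups apart: ICAM1 had 3 and 2 summits in H3K27ac high, against 4 and 3 in H3K27ac low, CD48 had 1 and 1 against 1 and 1, and SLAMF1 had 0 and 0 against 0 and 1.

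In the equal-length lists CD80 and CD86 had more summits in all 4 sorted libraries than in live control. CD80 had 7 and 9 summits in H3K27ac high, 8 and 7 in H3K27ac low, and 5 and 5 in live control. CD86 had 11 and 12 in H3K27ac high, 10 and 11 in H3K27ac low, and 9 and 8 in live control. All 4 sorted libraries exceeded live control at 2.42% of all genes (for CD80 and CD86 alike, two-sided exact permutation p = 0.0667, the lowest possible with 4 libraries against 2). The difference of means was 2.75 summits for CD80 and 2.5 for CD86. It depended on list length: in full lists the groups overlapped and the differences were -2.5 for CD80 and -2.0 for CD86. In lists of 12840 summits they also overlapped, with 3 and 3 summits in H3K27ac high, 3 and 2 in H3K27ac low, and 2 and 4 in live control at CD80, and 6 and 6, 3 and 4, and 4 and 5 at CD86. At the next shortest length CD86 stayed apart, with 23 in H3K27ac high replicate 2, 17 and 15 in H3K27ac low, and 14 and 13 in live control, and CD80 did not, with 11, 12 and 9, and 7 and 9. This joint comparison was added after the data were seen.

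Taken by group, H3K27ac high was higher than live control without overlap at CD80 and CD86, 2 of 7 where 5.93% of all genes were, and lower at ICAM1, 1 of 7 where 12.3% were. H3K27ac low was higher than live control at CD80, CD86 and CD48, 3 of 7 where 8.01% of all genes were, and lower at 0 of 7, where 7.79% were. Any 2 of the 3 pairwise comparisons share a group. The full lists turned the direction against live control, whose lists were the longest: 5 of 7 members were lower in H3K27ac high, where 65.0% of all genes were, and 2 of 7 lower in H3K27ac low, where 51.2% were. CD83, with 5 and 4 summits in H3K27ac high, 6 and 5 in H3K27ac low, and 5 and 5 in live control, and CD58, with 8 and 9, 10 and 7, and 6 and 8 in the same order, overlapped in every pair of equal-length comparisons.

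**Figure D3:**
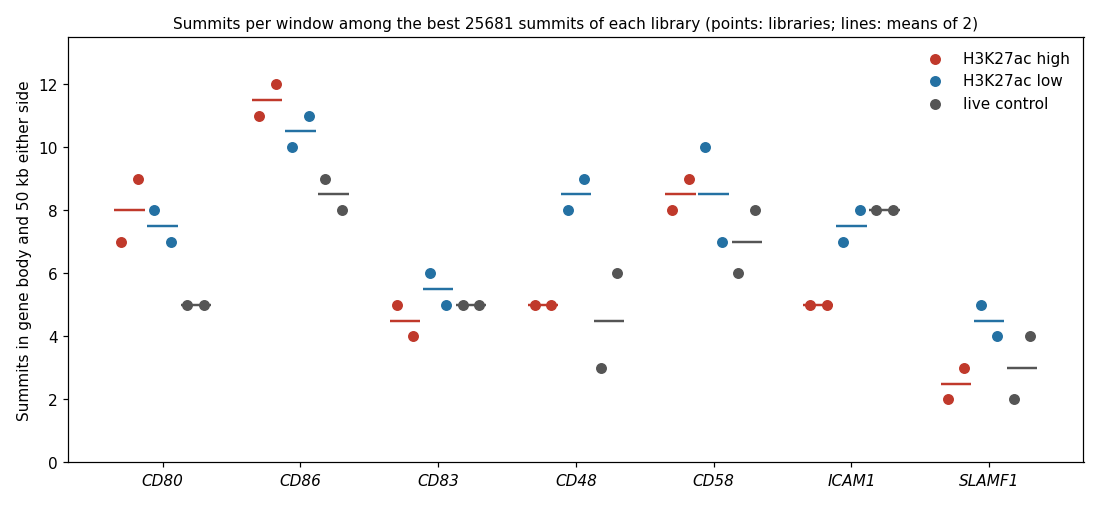
Summits in the gene body and 50 kb on either side of each gene among the best 25681 summits of each library. Points are libraries and lines are means of the 2 libraries of a group. ICAM1 is lower in H3K27ac high, at 5 and 5, than in every other library, and CD80 and CD86 are lower in live control than in every sorted library.

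Regions present in a single sorted group were few. In the full lists 0 of 127 member regions were called in both H3K27ac high and no H3K27ac low library, where 0.443% of all regions were, and 7 were called in both H3K27ac low and no H3K27ac high library, where 3.08% were. ICAM1 held 3 of these 7: the site 0.6 kb upstream of its start, the FDX2 start and a site 25.53 kb upstream (chr19:10245531-10245591). The others were the second CD86 start, the SLAMF1 gene-body site, a CD83 site 25.78 kb upstream (chr6:14091471-14091565) and a site 261 bp from the start of PLA1A in the CD80 window (chr3:119598100-119598146).

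Of the 72 member regions in any equal-length list, 2 were in both H3K27ac high and no H3K27ac low list, where 2.37% of all such regions were, and 7 the other way round, where 3.28% were. Both H3K27ac high regions were in the CD58 window, the site 0.57 kb into the gene and a site 15.86 kb upstream of it (chr1:116586778-116586883). A further 2 lay 678 bp from the start of PLA1A in the CD80 window (chr3:119598537-119598610) and in the CD86 gene body (chr3:122094335-122094435). These 2 were in all 4 sorted lists and no live control list, where 1.41% of all regions were. In both live control lists alone there were 0, where 2.18% were. These last 2 counts are too small to be read as a result about the members, and neither was tested.

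Among the regions called in every library, rank was compared with limma on normal scores, a scale on which 0 is the middle rank and higher is better. Of 19858 regions, 0% passed an adjusted p of 0.05 in any of the 3 comparisons, and 0 of the 36 member regions did. At an unadjusted p under 0.05 there were 9 member regions between H3K27ac high and H3K27ac low (2877 over all regions), 5 between H3K27ac high and live control (4113) and 4 between H3K27ac low and live control (3424). The lowest adjusted p of a member region was 0.271, 0.0965 and 0.179.

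By gene window, all 5 regions of the ICAM1 window had a lower score in H3K27ac high than in H3K27ac low, with differences from -1.25 to -0.32. The ICAM1 start had the smallest of these, -0.32, and the other regions lay nearest the starts of MRPL4, ICAM3, ICAM5 and S1PR2. All 5 regions of the CD83 window had a higher score in H3K27ac high, from 0.02 to 0.50. The fit leaves out regions that any library lacks. Among these were the CD83 start, not called in H3K27ac high replicate 1, and the site 25.78 kb upstream, called in no H3K27ac high library. The signs therefore do not cover the whole window, and the share of all regions above 0 was not taken. CD86 had 8 of 11 above 0, CD58 5 of 7, CD80 4 of 5 and CD48 1 of 3, the single SLAMF1 region, which the CD48 window shares, was at -1.22, and the median over the 36 regions was 0.12 against 0.02 over all regions. The lowest p against live control belonged to a CD86 gene-body site 47.3 kb downstream of the first start (chr3:122102558-122102691). Its shared ranks were 7803 and 7079 in H3K27ac high, 10462 and 11131 in H3K27ac low, and 17433 and 15779 in live control. The site was picked by its p from these same ranks, so their distance from live control is no separate support. The difference from live control was 1.31 (SE 0.279, adjusted p = 0.0965 in limma) for H3K27ac high and 0.88 (SE 0.279, adjusted p = 0.179) for H3K27ac low. These ranks do not pass the threshold with all 6 libraries.

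**Figure D4:**
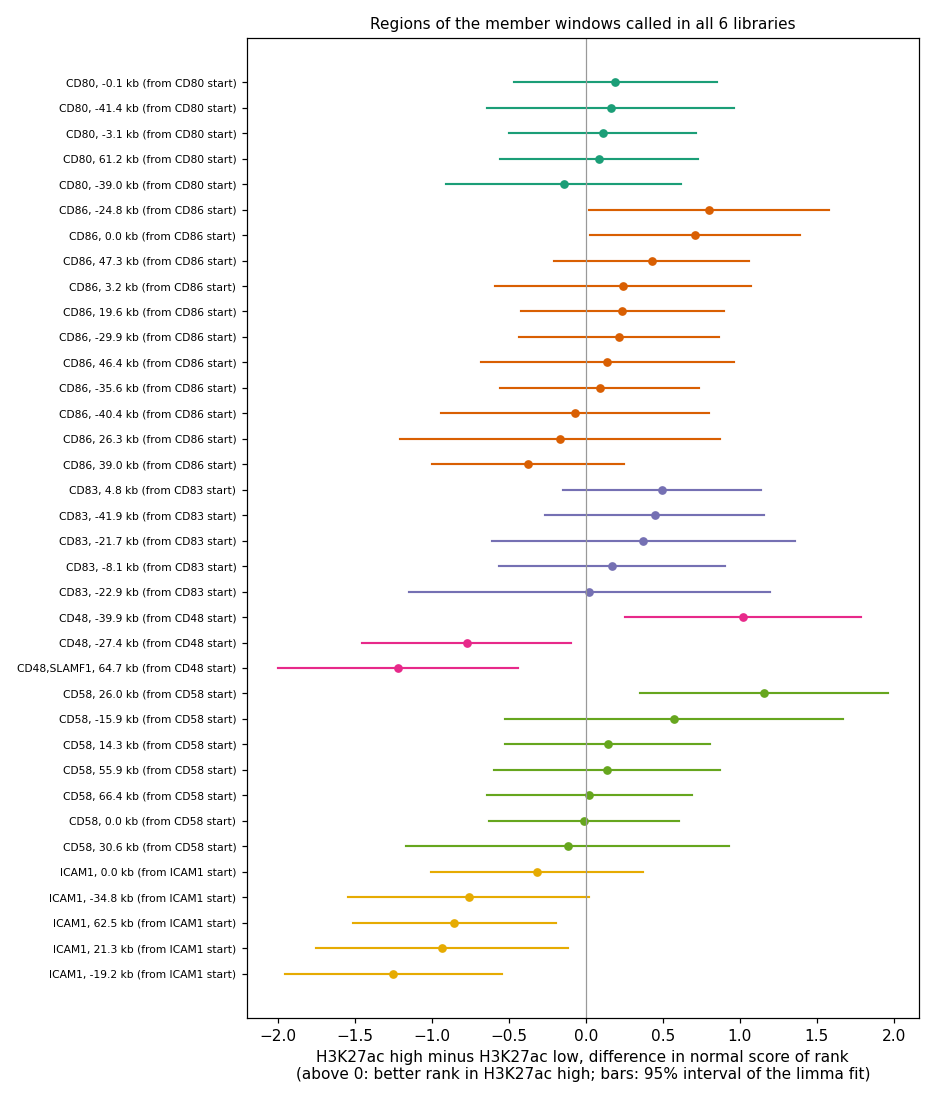
Differences in normal score of rank, H3K27ac high minus H3K27ac low, for the 36 member regions called in all 6 libraries. Points are estimates, bars are 95% intervals of the limma fit, before adjustment, and labels give each region's distance in kb from the named gene's first start. The 5 regions of the ICAM1 window lie below 0 and the 5 of the CD83 window above it. The CD83 start, not called in H3K27ac high replicate 1, is not among them.

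Without H3K27ac high replicate 2 some regions passed, no more often in the member windows than over all regions. In that fit H3K27ac high rested on 1 library, assumed to vary as the other groups do, so only differences are given. Among the member regions that passed, the SLAMF1 start was lower in H3K27ac high replicate 1 than in H3K27ac low (-1.59). The CD86 site 47.3 kb downstream was higher than in live control (1.24) and the CD83 site 22.94 kb upstream lower (-1.44). At this CD83 site the replicate left out had a shared rank of 7675, against 18264 in replicate 1. With all 6 libraries its difference from live control was -0.595.

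Other genes of the same contacts were examined from lists chosen with earlier results known. Of all protein-coding genes, 41.6% were open at a start in all 6 equal-length lists and 45.0% in all full lists. Of 15 further ligand and adhesion genes of B lymphoblasts, 4 were open at a start in all 6 equal-length lists and 7 in all full lists. The 4 were SLAMF7 and LY9, SLAM family receptors, CD274, the PD-1 ligand, and ICAM2, an integrin ligand, while ICOSLG, the ICOS ligand, and ITGB2, the beta chain of ICAM1's receptor, were open in none. Of 9 genes of T and NK cells that encode receptors or, in SH2D1A, their adaptor, 1 was open in all, CD244, and CD2, CTLA4, ICOS and SH2D1A were open in none. Of 6 adhesion genes of endothelium and epithelium 0 were open in all. Of the cell type markers, 2 of 7 B cell genes were open in all equal-length lists, MS4A1 and CD79B, as were CD3E among 4 T cell genes and 0 of 5 myeloid genes. All 7 members had a start in the promoter table. So did 7 of the 15 ligand and adhesion genes, 2 of the 6 of endothelium and epithelium and 4 of the 7 B cell markers. For genes without one, either annotated end stood in, so these lists were not scored quite as the members were.

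Over 12 counts, the 6 full and 6 equal-length window counts, the gene most like CD86 of 19943 compared was TPD52, at a summed absolute difference of 11 summits. SLC9A7 was closest to CD58 at 12 and RYR1 to CD48 at 9. The nearest to CD83 was CFAP97 at 3, to CD80 PCBP1 at 7 and to ICAM1 RNF157 at 10, each tied with 1 other gene, and to SLAMF1 POLR2A at 7, among 3 tied genes. The 12 counts share libraries, so these are descriptions.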

How the data were processed

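Each library came as 1 deposited list of single-base summits with a score, read as the −log10 of a p-value or q-value from the authors' peak caller, with a lowest value of 2.02. Peaks were listed per library, not pooled. Per the submitters' processing notes, bcl2fastq, FastQC, Bowtie2, Picard and MACS2 were used with the builds hg38 and hg19. Their settings, the Tn5 offset and duplicate removal were not given in the sources used here. Contig names are those of hg38, and positions are 1-based. The score grows with depth, so it was used only as a rank within a list.

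Summits were counted in windows of 50 kb either side of RefSeq gene bodies (GRCh38.p14) in full lists and in the best 25681 per library. Open at a start means a summit within 1 kb. Starts came from promoter entries for 15812 genes, and either annotated end stood in for the other 4162. Regions called in all 6 libraries were ranked, turned into normal scores and fitted with limma 3.58.1 (R 4.3.3) over all regions, with Benjamini-Hochberg adjustment at 0.05. Groups were taken from sample titles. Named regions were, in each window, the start, the best in the gene body and flanks, and up to 3 per pair of groups called in both libraries of 1 group and neither of the other. The genes, lists and tests were chosen with earlier results of these data known. Alternatives covered list length, window, start distance, chaining, scaling, the replicate block and single libraries left out. Python 3.11.15, pandas 2.3.3 and numpy 2.4.6 were used.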

Additional observations from a re-analysis of the deposited data

How the results depend on the processing

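The summed difference in member windows depended on list length. Between H3K27ac high and H3K27ac low it was -6.0 summits in the equal-length lists, -24.5 in full lists, 3.5 with lists cut to 12840 summits, -2.5 with 10 kb flanks, and -0.5 without H3K27ac high replicate 1 at the next shortest length, an alternative chosen after seeing the data. Leaving out each library gave -8.0 to -4.0. Between H3K27ac high and live control it was 4.5, turning to -37.5 in full lists, with 10.5 at the next shortest length and 2.5 to 6.5 leaving out each library. Between H3K27ac low and live control it was 10.5, turning to -13.0 in full lists, with 0.0 in the 12840-summit lists, 5.5 with 10 kb flanks and 9.0 to 12 leaving out each library. Live control has the longest full lists. Other causes were not tested. Members open at a start in all libraries were 4, with 1 in the 12840-summit lists, 7 without H3K27ac high replicate 1 at the next shortest length, and 4 to 5 leaving out each library. Member regions past the limma threshold were 0 in each comparison, and 0 under other scaling, chaining or at least 5 libraries. Some passed without H3K27ac high replicate 2, in a fit that left 1 library in that group. Genes higher in H3K27ac high than in H3K27ac low without overlap numbered 824, and 133 in full lists. Replicate numbers did not pair the libraries: replicate differences correlated at 0.058, -0.011 and 0.008 between groups. With the replicate block the 3 summed differences stayed -6.0, 4.5 and 10.5 (exact sign-flip p = 0.5, the smallest 2 pairs allow) and limma called 0 member regions.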

Other observations

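The SLAM family cluster around CD48 and SLAMF1 holds further receptors close by. SLAMF7, an activating receptor of NK and plasma cells, had 6 and 8 summits in the equal-length lists of H3K27ac high, 8 and 10 in H3K27ac low, and 6 and 6 in live control. LY9 had 6 and 10 in H3K27ac high, 8 and 8 in H3K27ac low, and 7 and 7 in live control. SLAMF6 had 3 and 2, 1 and 4, and 2 and 2, and CD244 5 and 6, 5 and 6, and 5 and 5, in the same order. In none of these 4 windows were the sorted groups apart, and neighbouring windows of the cluster share summits.

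Of 15 further ligand and adhesion genes of B lymphoblasts, 4 were lower in H3K27ac high than in H3K27ac low without overlap in the equal-length lists and 0 were higher, where 10.4% and 4.13% of all genes were (exact permutation p = 0.333 for each, the smallest possible). TNFSF4, the OX40 ligand, had 8 and 8 summits in H3K27ac high, 10 and 10 in H3K27ac low, and 7 and 7 in live control. TNFSF9, the 4-1BB ligand, had 5 and 6 in H3K27ac high, 8 and 9 in H3K27ac low, and 6 and 8 in live control. CD70, the ligand of CD27, had 2 and 3, 4 and 5, and 4 and 4 in the same order. ICAM3, which lies in the ICAM1 cluster of chromosome 19 and shares part of its window, had 3 and 4, 5 and 6, and 4 and 6. The other 11 overlapped between the sorted groups, among them CD274, with 6 and 7 in H3K27ac high and 6 and 5 in H3K27ac low.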
